A study of Rattus norvegicus with 8 samples.

Results

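The AP-1 transcription factor subunits measured here are 9 genes, namely Fos, Fosb, Fosl1 and Fosl2 of the Fos family, Jun, Junb and Jund of the Jun family, and the related factors Atf3 and Batf. They were found as the non-control probes whose gene name in the array files equals one of these symbols, which gave 13 of 45598 probes and 24 of 58717 non-control spots on each array, or 9 of 36174 distinct gene names. The arrays hold RNA of NR8383 cells, an alveolar macrophage line that was started from the lung lavage of a normal rat. Control cells were kept for 4 h in medium without serum (0 µg/mL nanotubes), and NM401 cells were kept in the same serum-free medium for 4 h with NM401, a multi-walled carbon nanotube, at 0.17 µg/mL. Each group had 4 biological replicates, so 8 arrays were compared. Both groups are cultures of a single cell line, which stands in for alveolar macrophages outside the lung, and both share the serum withdrawal.

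AP-1 is a dimer of basic leucine zipper proteins, in which a Jun protein pairs with itself or with a Fos, Atf or Batf protein through the zipper and reads short palindromic sites such as TGANTCA in DNA. Fos, Fosb, Jun, Junb and Atf3 are known as immediate early genes, which growth factors, stress and phagocytic stimuli can switch on through MAP kinases before any new protein is made, and whose short-lived messages are soon removed. Fosl1 and Fosl2 often follow later, Jund is present in most resting cells, and in macrophages AP-1 takes part in the control of cytokine, chemokine and protease genes.

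The probes are single strands of 60 bases, and a few of them show what was read. The Jun, Junb, Jund and Fosl2 probes printed here are open in at least 1 reading frame. They are shown because they tell apart the Jun paralogues and because Fosl2, the member that went the other way, was read by a repeated sequence. Capitals mark a TGA that ends the open frame.
Fosl2, probe with the higher signal: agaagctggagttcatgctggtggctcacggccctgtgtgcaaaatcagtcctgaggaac
Fosl2, the other probes: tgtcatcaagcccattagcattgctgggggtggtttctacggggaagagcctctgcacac
Jun, probe with 1 spot: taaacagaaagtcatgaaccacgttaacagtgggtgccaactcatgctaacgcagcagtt
Junb: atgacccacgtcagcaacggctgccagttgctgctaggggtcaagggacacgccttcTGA
Jund, probe with the lower signal: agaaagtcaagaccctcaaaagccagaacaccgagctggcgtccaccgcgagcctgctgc
The second Fosl2 sequence is carried by 2 probes on the array, so the 3 Fosl2 probes read 2 different stretches of the message. The Jun and Junb probes come from matching stretches of these paralogues, and 29 of 47 aligned bases were identical between them. On rat build rn4, per the files, this Jun probe lies at chr5:115359410-115359469 on the minus strand, the Junb probe at chr19:24832781-24832840 on the plus strand and this Jund probe at chr16:19240333-19240392 on the minus strand. The Fos probe lies at chr6:109561941-109562000 and the Batf probe at chr6:109817446-109817505, both on the plus strand, and the files give no position for the Fosl2 probes. The exon annotation of rn4 was not used here.

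Values are log2 of the background-subtracted signal minus the 75th percentile of the non-control spots on the same array, so 0 is the level of a bright spot and each unit is a doubling. Testing was limited to probes that 4 or more of the 8 arrays read well above background, and calls were made where the adjusted p fell below 0.05 (limma, Benjamini-Hochberg over all tested probes). The probe with the highest mean signal stands for a gene. With NM401, 6 of the 8 tested members were called higher (Fos, Jun, Junb, Jund, Atf3 and Batf), 1 was called lower (Fosl2) and 1 was not called (Fosb). Fosl1 did not rise clear of background on any of the arrays, so it was left untested. Over all 17395 genes tested, 21.9% were called higher and 35.5% lower, 57.4% in all. Fos and Batf passed the filter only through their NM401 arrays, where they are high, so the count of 6 is a description. Of the 6 members well above background on all 8 arrays, 4 were called higher and 1 lower, where 22.7% and 36% of the 15222 genes above background on all arrays were. The median log2 difference of the 8 tested members was 0.64, against -0.10 over all genes. It includes Fos and Batf, so it too is a description. With Fos at the smaller fold given below it is the same, as it must be while Fos stays above the middle members. The 4 NM401 values lay above the 4 control values in 5 tested members (Fos, Jun, Junb, Atf3 and Batf) and below them in Fosl2, where 21% and 32.3% of all genes did so. Fos and Batf are again in this count only through the filter, while Jun, Junb and Atf3 were well above background on all arrays. Of the 13 probes, 10 were well above background on all arrays.

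The arrays differed in brightness. Control arrays had a 75th percentile of 1240 ± 225 (SD, n = 4) and NM401 arrays of 2690 ± 173 (SD, n = 4), and 51.7% to 58% of spots were well above background. The E1A spike-in probes, RNA added in the labelling step of such arrays, stood on the scaled log2 axis at 3.76 ± 0.53 on control arrays and at 1.29 ± 0.17 on NM401 arrays (SD, n = 4 each). Higher and lower are therefore stated against the bulk of the sample RNA on an array. Relative to the spike-ins, each of the 8 tested members, Fosl2 included, was higher on every NM401 array than on every control array. The spike-ins differed by -2.47 log2 units between the groups, so this scale raises every gene in NM401 alike. The share of all genes that did so was not counted, so this does not set the members apart. Whether equal amounts of spike-in were added is not given in the sources used here. Of all calls, 38.2% were higher with the scaling used here. Quantile normalisation gave 49.5% and median scaling 64.5%, with medians over all genes of -0.01 and 0.11. With normexp background correction 22.6% of calls were higher, and with the deposited series values, which are not background-subtracted, 25%. Slide 1 held every control array together with NM401 replicate 1, and slide 2 held the remaining NM401 arrays, so values within slide 1 and with slide as a block rest on NM401 replicate 1 alone. Slides were scanned separately, and the scan splits the arrays in the same way. Row 1 of the slides held controls and row 2 held NM401, which means that row cannot be told apart from group. Macrophage markers were present, with 11 of 12 tested, although Marco, a scavenger receptor of alveolar macrophages, stayed at background throughout. The summed linear level of the macrophage markers was 141 to 149 times the 75th percentile in control and 126 to 133 times in NM401. The sum weighs the brightest markers most, and the markers did not move as one. Of the 11 tested, 3 were called higher, 3 lower and 5 neither, with a median log2 difference of 0.06. That is 27.3% each way, beside 21.9% higher and 35.5% lower of all genes. For the 7 epithelium markers, none tested and 4 at background on every array, the sum was 0.0401 to 0.0628 and 0.0203 to 0.0672. For lymphocyte markers, 1 of 6 tested, it was 0.105 to 0.148 and 0.0653 to 0.116, for fibroblast and endothelium markers, 3 of 7 tested, 0.905 to 0.922 and 1.11 to 1.27, and for neutrophil markers, 2 of 6 tested, 0.469 to 0.631 and 0.304 to 0.427. The part of these markers in the results was not tested.

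**Figure D1:**
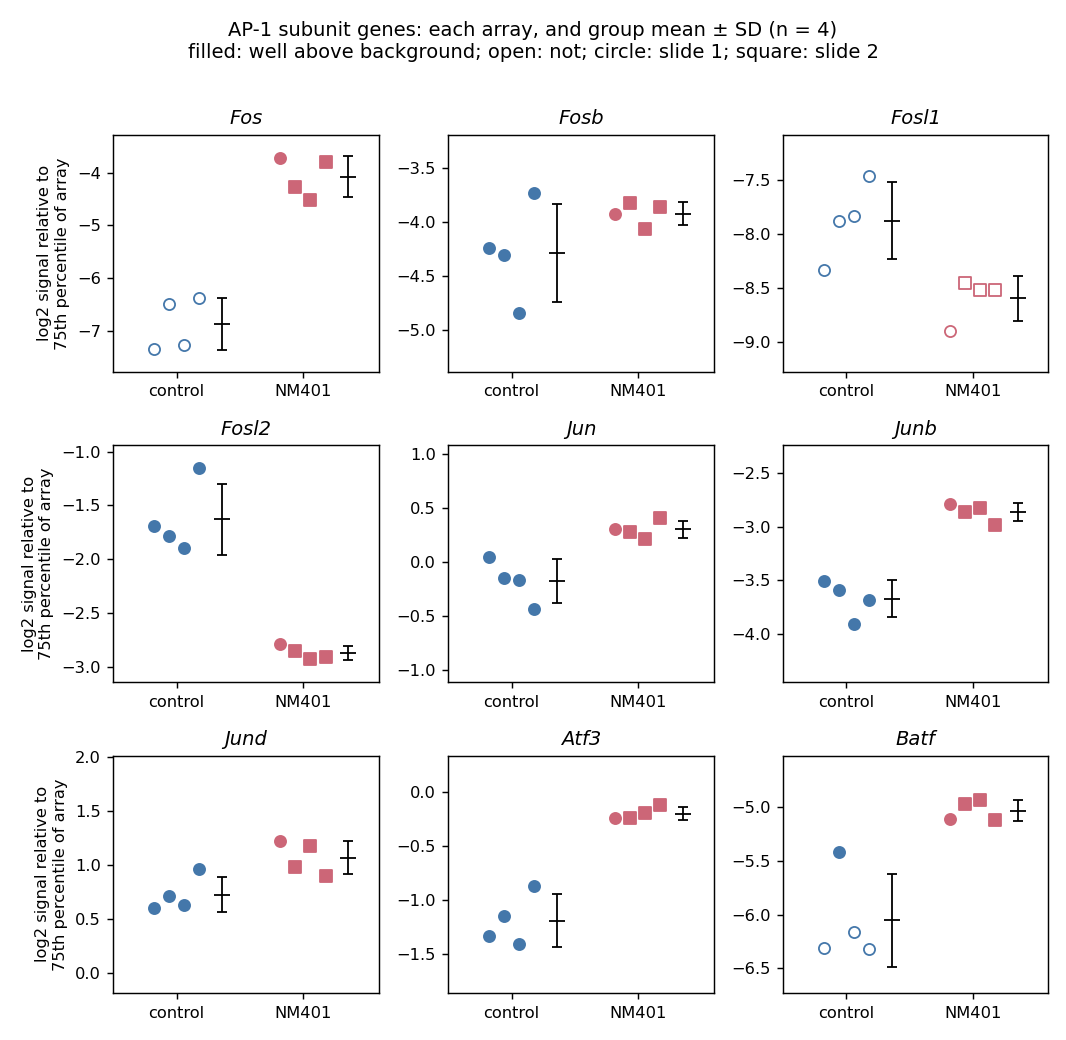
Log2 signal relative to the 75th percentile of the array (vertical axis, own range in each panel) for each AP-1 gene, on 4 control arrays (blue) and 4 NM401 arrays (red), with the group mean ± SD beside them. Filled symbols are arrays where the probe was well above background, circles are slide 1 and squares slide 2. Fos shows the widest step up, Fosl2 steps down, Fosb and Jund overlap, and every Fosl1 symbol is open.

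Fos, the founding partner of Jun in AP-1, had the largest difference of the members, also with control values raised as below. The exceptions were normexp correction and the deposited series values. The Fos signal before scaling was 8.09, 16.5, 7.68 and 11.5 on control replicates 1 to 4. On NM401 replicates 1 to 4 it was 219, 132, 122 and 184. No control array was well above background and all NM401 arrays were, so the groups are apart and the control level is not firmly known. Scaled, the control values were -7.35, -6.50, -7.26 and -6.38 and the NM401 values -3.72, -4.26, -4.52 and -3.79. Each control array was given the higher of its own value and the level of its lowest probe well above background. Fos was then 5.95-fold higher with NM401 (limma adjusted p = 0.000146 for the fitted difference). That level is no detection limit. Fos on control replicate 2 read -6.50, above the -7.20 of that array, and was still at background. The fold is therefore not a strict lower bound. Fos passed the filter only through the NM401 arrays, so this p is no support of its own, and with no filter the adjusted p was 0.00108. The fitted log2 difference was 2.80 ± 0.28 (SE). Both Fos spots on the array were well above background in every NM401 replicate. They read 147 and 326 on NM401 replicate 1 and lay within 121 to 187 on the other three. The log2 difference shrank to 0.44 with normexp correction, which keeps an offset of 50, and to 0.75 with the deposited series values, both still called (adjusted p = 0.0136 and 0.00333).

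Fosb, a Fos paralogue that is also an immediate early gene, was well above background on all arrays. Its control values were -4.24, -4.31, -4.85 and -3.73 and its NM401 values -3.92, -3.83, -4.07 and -3.86. The NM401 arrays sat close together inside the range of the controls, of which replicate 4 was the highest. The log2 difference of 0.36 ± 0.21 (SE) did not pass the test (limma adjusted p = 0.165), with a 95% interval from -0.11 to 0.83. Without control replicate 4 it was 0.54 and called (adjusted p = 0.0208), as it was with median scaling at 0.57 (adjusted p = 0.0251), and it was -0.16 with normexp correction and -0.06 with the deposited series values.

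Fosl1, which encodes Fra-1, read 4.08 to 6.34 in control and 6.01 to 7.62 in NM401 before scaling. All 8 arrays lay at background, so no fold is given.

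Fosl2, which encodes Fra-2, was the 1 member called lower. On the scaled axis the brighter probe read -1.69, -1.78, -1.89 and -1.16 in control and -2.79, -2.86, -2.93 and -2.92 in NM401. Every NM401 array lay below every control array, and the gap between the groups was 0.90 log2 units. Fosl2 fell by 1.24 ± 0.15 (SE) on the log2 scale (limma adjusted p = 0.000328), and 4.09% of all genes lay as low or lower. The second probe had control values between -2.80 and -2.51 and NM401 values between -3.36 and -3.17, and the third, with the same sequence, lay between -2.53 and -2.45 and between -3.29 and -3.14. They fell by 0.61 ± 0.08 and 0.74 ± 0.05 (SE), again with no overlap (limma adjusted p = 0.000481 and 5.55e-05). The signals before scaling did not separate at the brighter probe, with 317 to 433 in control and 339 to 415 in NM401. At the second probe all NM401 signals were above all control signals, with 160 to 232 in control and 261 to 308 in NM401, and at the third they overlapped, with 169 to 272 and 267 to 304. The fall is thus one against the signal of the whole array, and it turned to a rise of 1.23 log2 units when the spike-ins set the scale. Within slide 1 the brighter probe differed by -1.16 and the second by -0.57, neither called (adjusted p = 0.0607 and 0.0638). The third, with the sequence of the second, was at -0.81 and called (adjusted p = 0.0348).

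**Figure D2:**
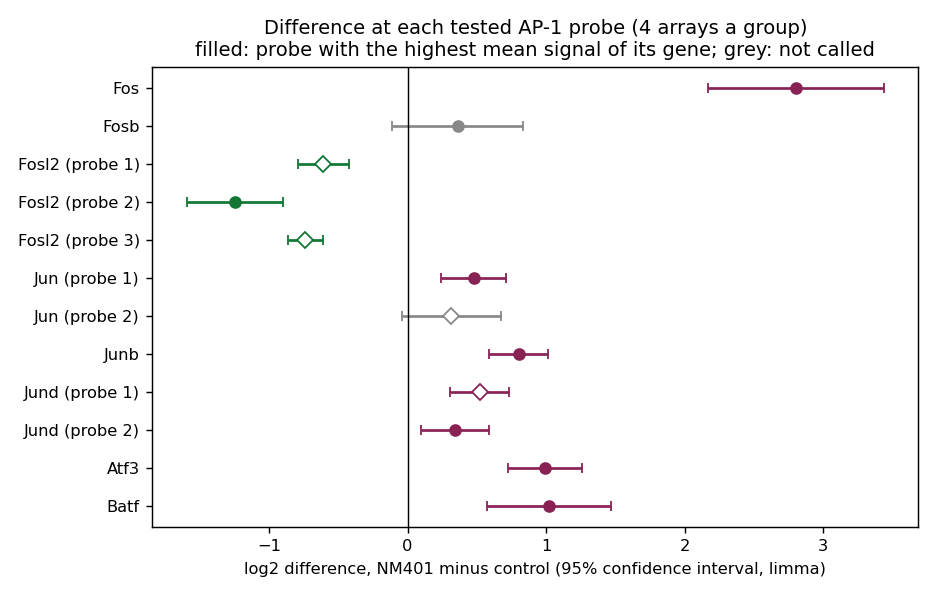
Log2 difference of NM401 minus control (horizontal axis) with its 95% confidence interval from limma for the 12 tested AP-1 probes, 4 arrays a group. Purple probes were called higher, green lower and grey not called, and filled circles mark the probe that stands for its gene. The 3 Fosl2 probes lie at -1.24, -0.61 and -0.74, and all other probes lie to the right of 0, Fosb and the second Jun probe with intervals that cross it.

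Jun, the central subunit of most AP-1 dimers, was bright on every array. Its probe with 10 spots, at chr5:115358764-115358823 (rn4, minus strand), read 0.05, -0.15, -0.17 and -0.44 in control and 0.31, 0.28, 0.22 and 0.40 in NM401. The groups did not overlap, with control replicate 1 the nearest to the NM401 arrays, and spots of the probe within an array had an SD of at most 0.0948. Jun rose by 0.48 ± 0.10 (SE) on the log2 scale (limma adjusted p = 0.00484), or 1.39-fold. The probe with 1 spot, printed above, read -0.19, -0.33, -0.08 and -0.47 in control and -0.37, 0.15, 0.07 and 0.34 in NM401. There NM401 replicate 1 lay among the controls, and the difference of 0.32 ± 0.15 (SE) did not pass (limma adjusted p = 0.112). With slide as a block the 10-spot probe kept its value at 0.48 and was not called (adjusted p = 0.0688, and 0.15 within slide 1), and the 1-spot probe was at -0.10.

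Junb, a Jun paralogue that acts as a partner and as a brake on Jun, was a dim but steady probe. Its values were -3.51, -3.58, -3.90 and -3.68 in control and -2.79, -2.86, -2.83 and -2.98 in NM401, and the groups were 0.52 log2 units apart at their closest. Junb rose by 0.80 ± 0.09 (SE) on the log2 scale, or 1.74-fold (limma adjusted p = 0.000268). It was called under all 18 alternatives tried, with 0.37 under normexp correction as the lowest value and 0.88 within slide 1 (adjusted p = 0.0436).

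Jund, the paralogue of resting cells, was read by probes of unlike brightness. The brighter one, at chr16:19239707-19239766 (rn4, minus strand), read 0.60, 0.71, 0.62 and 0.96 in control and 1.22, 0.98, 1.18 and 0.89 in NM401. NM401 replicate 4 fell below control replicate 4, so the groups overlapped. The log2 difference was 0.34 ± 0.11 (SE; limma adjusted p = 0.0242), which passed in 9 of 18 alternatives. It did not pass without control replicate 1, 2 or 3 or without NM401 replicate 1 or 3, where the difference ran from 0.29 to 0.34 and the adjusted p from 0.0514 to 0.0658. The dimmer probe lay between -4.12 and -3.71 in control and between -3.45 and -3.33 in NM401. Those groups did not overlap, and it rose by 0.52 ± 0.09 (SE; limma adjusted p = 0.00193), but the difference was 0.06 with normexp correction and was not called (adjusted p = 0.559).

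Atf3, a stress-induced factor that pairs with Jun and is known to hold back inflammatory genes in macrophages, was read by a probe with 2 spots. The file places it at chr13:107191582-107191614 (rn4, minus strand), which covers part of the probe. Its values were -1.34, -1.15, -1.41 and -0.87 in control and -0.24, -0.24, -0.19 and -0.12 in NM401. All NM401 arrays lay above all controls, and their spread was narrower, with SDs of 0.06 and 0.24. Atf3 rose by 0.99 ± 0.12 (SE) on the log2 scale, or 1.99-fold (limma adjusted p = 0.000285). The difference was 0.95 with normexp correction (adjusted p = 3.85e-05), with slide as a block (adjusted p = 0.0121) and within slide 1, where it was not called (adjusted p = 0.0555).

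Batf, a small factor with a zipper and no activation domain of its own, was close to background. The signals before scaling were 16.6, 34.9, 16.5 and 12 in control, where only replicate 2 was well above background, and 83.4, 81, 91.6 and 73.2 in NM401, where all were. Scaled, these were -6.31, -5.42, -6.16 and -6.32 against -5.11, -4.97, -4.93 and -5.13. The groups did not overlap, and the fitted log2 difference was 1.02 ± 0.20 (SE; limma adjusted p = 0.0029, and 0.0107 with no filter). Batf passed the filter only through the NM401 arrays and 3 control values were at background, so neither the difference nor its p is firm. The direction turned to -0.16 with normexp correction and -0.06 with the deposited series values, neither called (adjusted p = 0.0884 and 0.651), and slide as a block gave 0.94 (adjusted p = 0.0647).

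**Figure D3:**
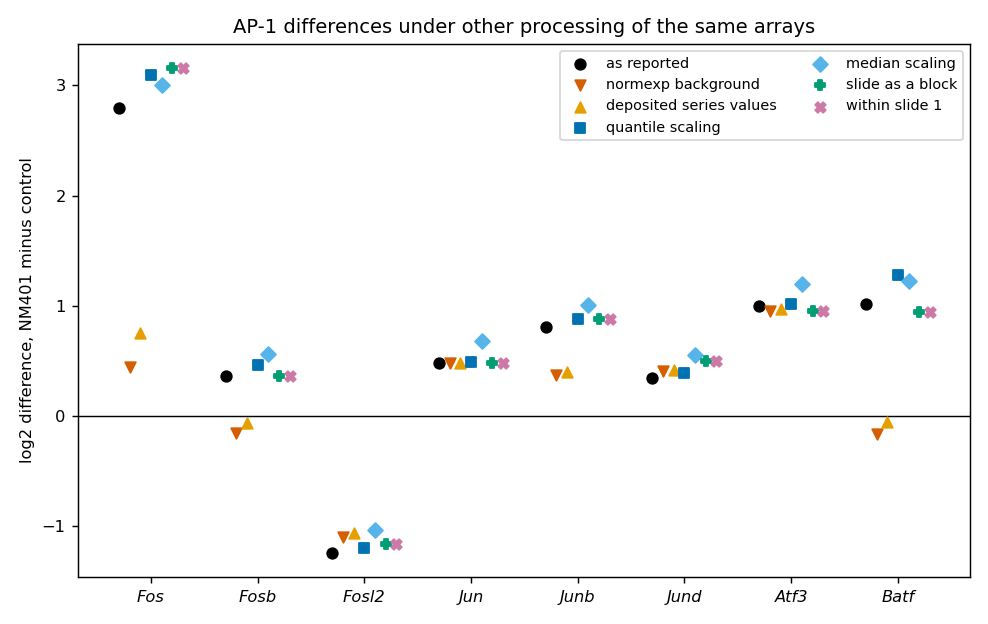
Log2 difference of NM401 minus control (vertical axis) for the 8 tested AP-1 genes as reported (black) and under 6 other treatments of the same arrays, one symbol each. With normexp correction and with the deposited series values, Jun, Atf3 and Fosl2 nearly keep their size. There Fos drops to 0.44 and 0.75, Junb to 0.37 and 0.40, and Fosb and Batf cross 0.

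Differences between members of the same array do not depend on how arrays are scaled against each other. A shift in one shows unequal change of the probe signals. It need not equal that of the messages, since the Fosl2 probes differed between the groups by -1.24, -0.61 and -0.74. For the 6 genes well above background on all arrays there are 15 pairs, and in 8 of them the NM401 arrays did not overlap the control arrays, and in 11 with normexp correction. Over all pairs of the 15222 genes above background on all arrays the share was 53.3%, so the count of 8 does not set the members apart from other genes. That share was not counted with normexp correction, so the count of 11 cannot be set against it and does not set the members apart either. All 5 pairs with Fosl2 were among the 8. They use the brighter Fosl2 probe, which fell most, so the shifts would be smaller with the other Fosl2 probes. The Fosl2 signal minus the Junb signal averaged 2.04 ± 0.34 on control arrays and -0.01 ± 0.07 on NM401 arrays (SD, n = 4 each). Different probes have different yields, so only the shift of -2.05 log2 units can be read. Against Atf3 the shift was -2.24, from -0.44 ± 0.15 to -2.68 ± 0.11 (SD, n = 4 each), against Jun -1.72, against Jund -1.59, and Fosb minus Fosl2 shifted by 1.61. With normexp correction, the Fosl2 shifts against Junb, Atf3, Jun and Jund were -1.47, -2.05, -1.58 and -1.51, Fosb minus Fosl2 shifted by 0.94, and all 5 stayed apart. Among the other members, Jund minus Atf3 shifted by -0.65 and Fosb minus Atf3 by -0.63 with no overlap, and by -0.54 and -1.11 with normexp correction. Junb minus Jund shifted by 0.46, a shift that was -0.04 and overlapped with normexp correction. Jun against Junb, Jund or Atf3 overlapped under both.

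**Figure D4:**
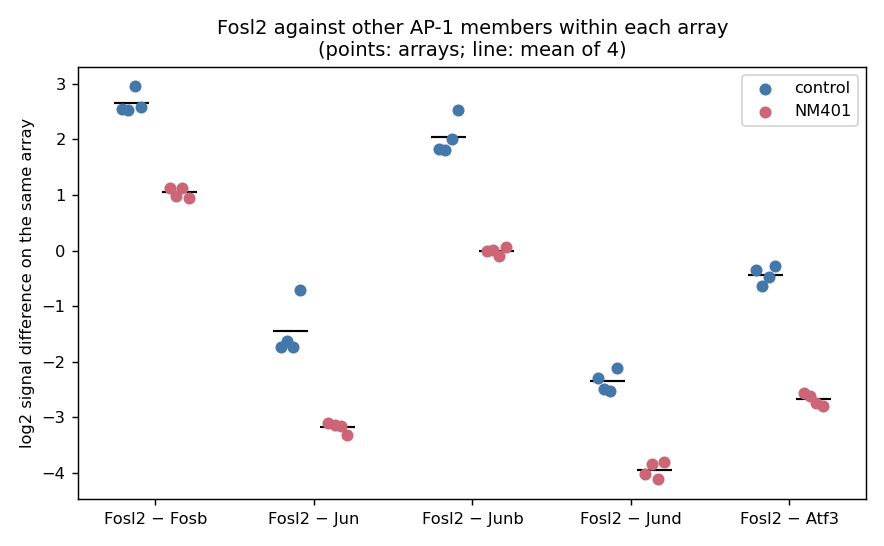
Log2 signal of Fosl2 minus that of 5 other AP-1 genes on the same array (vertical axis), for 4 control arrays (blue) and 4 NM401 arrays (red), with black lines at the means of 4. In every pair all NM401 points lie below all control points, with mean shifts from -1.59 against Jund to -2.24 against Atf3. Fosl2 is shown by its brighter probe, which fell more than its other probes.

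The genes whose 8 values came closest to those of a member, after each was centred on its control mean, were found among 9947 genes that were well above background on all arrays and have a gene symbol in the RefSeq table. For Junb they were Fbxl5, Zbed4 and Cep290, with root-mean-square differences of 0.0583, 0.0589 and 0.0681 log2 units. For Atf3 they were Msr1, a scavenger receptor gene of macrophages, Ifgga2l2 and Igflr1 (0.0915, 0.0951 and 0.0986). For Fosl2, taken by its brighter probe, they were Glyctk, H2aj and Timm10b (0.0749, 0.108 and 0.123). After such centring, a gene with a like difference between the groups comes close, so nearness is a description. Whether these genes are regulated together was not tested.

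Promoter sequences of 6 members were found in a RefSeq table (build GRCr8), those of Fosb, Fosl1, Fosl2, Junb, Jund and Batf. The 250 bases before the start are printed for Junb and Jund, which were called higher, and for Fosl2, which was called lower, with TGACGTCA, TATAAA and CCAAT in capitals.
Junb, chr19:40080876-40081125, plus strand: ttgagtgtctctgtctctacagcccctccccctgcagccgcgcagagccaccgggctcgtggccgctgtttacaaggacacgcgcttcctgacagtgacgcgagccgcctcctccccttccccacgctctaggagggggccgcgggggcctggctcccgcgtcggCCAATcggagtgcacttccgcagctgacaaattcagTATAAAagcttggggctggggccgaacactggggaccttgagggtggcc
Jund, chr16:18769772-18770021, minus strand: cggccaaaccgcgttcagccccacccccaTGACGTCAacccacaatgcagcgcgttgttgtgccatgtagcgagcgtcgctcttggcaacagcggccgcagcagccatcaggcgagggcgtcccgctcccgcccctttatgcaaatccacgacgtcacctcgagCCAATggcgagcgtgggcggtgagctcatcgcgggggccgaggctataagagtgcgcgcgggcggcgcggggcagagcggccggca
Fosl2, chr6:30039270-30039519, minus strand: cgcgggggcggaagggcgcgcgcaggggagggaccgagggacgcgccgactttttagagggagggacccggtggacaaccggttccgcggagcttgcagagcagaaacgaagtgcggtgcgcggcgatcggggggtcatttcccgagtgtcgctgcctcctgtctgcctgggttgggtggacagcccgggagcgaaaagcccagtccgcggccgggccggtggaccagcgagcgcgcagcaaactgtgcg
Jund holds TGACGTCA, the site read by Jun and Atf dimers, 221 to 214 bases before the start, and 1.59% of 33469 rat promoters of the same length hold it on either strand. Junb and Jund hold CCAAT at 85 to 81 and 86 to 82 bases before the start, as 34% of promoters do, and Junb holds TATAAA at 49 to 44 bases, as 12.9% do. Fosb holds TATAAA on the minus strand, 180 to 175 bases before the start. GGGCGG, which 30.5% of promoters hold, is in the windows of Fosl1, Fosl2, Jund and Batf. None of the 6 windows holds TGANTCA (6.34%), TGACATCA (3.8%) or the CArG box of serum response factor (1.5%), all searched on both strands. TGACGTCA, TGANTCA and TGACATCA differ from each other and do not share matches.

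Many of the other basic leucine zipper factors pair with AP-1 proteins. Of 26 listed, 23 were tested, 10 were called higher, 5 lower and 8 neither, with a median of 0.19. That is 43.5% higher and 21.7% lower, beside 21.9% and 35.5% of all genes. These lists were chosen with results of these data known, so their counts are descriptions. Cebpg rose by 1.04 ± 0.06 (SE), Atf4, the factor of the integrated stress response, by 0.58 ± 0.06, and Atf2, a partner of Jun, by 0.73 ± 0.07 on the log2 scale (limma adjusted p = 3.49e-05, 0.00013 and 0.000155). Maf fell by 1.54 ± 0.17, Atf7 by 0.42 ± 0.05 and Jdp2, a repressor that dimerises with Jun, by 0.66 ± 0.08 (adjusted p = 0.00021, 0.000328 and 0.000377). Another Maf probe was called higher at 0.67, and the mean of the Maf probes was not called. A second Cebpg probe was called at only 0.29, and a second Jdp2 probe was at -0.30 and not called. The second Atf7 probe fell more and was called, at -0.77. Maff, a small Maf protein gene, rose by 0.38 ± 0.08 (adjusted p = 0.00483) but was at 0.01 with normexp correction and was not called with the deposited series values. Neither Maff nor Jdp2 was called within slide 1.

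Of 22 MAP kinase pathway genes, the kinases that phosphorylate Jun, Fos and their activators, 20 were tested, 5 were called higher, 6 lower and 9 neither, with a median of -0.01. The shares of 25% and 30% lie near the 21.9% and 35.5% of all genes. Map2k1, which activates ERK, rose by 0.46 ± 0.05, Mapk9, a JNK gene, by 0.47 ± 0.06 and Rps6ka3 by 0.42 ± 0.08 (SE; limma adjusted p = 0.00029, 0.000438 and 0.00288). A second Rps6ka3 probe was at 0.17 and not called, and 3 of 4 Mapk9 probes were called higher, the lowest probe being at -0.03. Rps6ka1 fell by 0.52 ± 0.06, the p38 genes Mapk14 by 0.43 ± 0.05 and Mapk13 by 1.13 ± 0.18 (adjusted p = 0.000276, 0.000384 and 0.00132). Within slide 1, Rps6ka1, Mapk14, Mapk13 (-0.56) and Rps6ka3 were not called, and Rps6ka3 was at 0.24 and not called with slide as a block.

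Of 14 factors known to act on the Fos and Jun promoters, 13 were tested, 2 were called higher, 6 lower and 5 neither, with a median of -0.28, or 15.4% higher and 46.2% lower beside 21.9% and 35.5% of all genes. Srf, the serum response factor that binds the CArG box of Fos, was at -0.03 ± 0.07 (SE) and not called, with 0.17 under median scaling. Its cofactor gene Mrtfa fell by 0.81 ± 0.06, Mef2a by 0.72 ± 0.07 and Stat3 by 0.52 ± 0.07 (limma adjusted p = 4.91e-05, 0.000126 and 0.000461). A second Mef2a probe was at 0.41 and not called, and the mean of the Mef2a probes, -0.16, was not called. Nfya, a subunit of the CCAAT-binding factor, rose by 0.93 ± 0.14 and Elk3, a ternary complex partner of Srf, by 0.38 ± 0.09 (adjusted p = 0.000909 and 0.00703). With normexp correction Nfya was at 0.18 and not called, and within slide 1 neither Nfya nor Elk3 was called.

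Of 14 genes that act on the turnover of AP-1 messages and proteins, 13 were tested, 4 were called higher, 5 lower and 4 neither, with a median of -0.06. The shares were 30.8% higher and 38.5% lower, beside 21.9% and 35.5% of all genes. Khsrp, a protein that promotes the decay of AU-rich messages, fell by 0.83 ± 0.06, Elavl1, which stabilises such messages, by 0.67 ± 0.09 and Hnrnpd, another AU-rich binder, by 0.32 ± 0.07 (SE; limma adjusted p = 5.77e-05, 0.000492 and 0.00689). Cop1, a ubiquitin ligase for Jun, rose by 0.47 ± 0.06 and Itch, a ubiquitin ligase for Jun and Junb, by 0.29 ± 0.06 (adjusted p = 0.000306 and 0.0064). Of these 5, all but Khsrp were not called within slide 1. Itch and Hnrnpd were not called with slide as a block either, and Hnrnpd was at -0.12 and not called with median scaling. Second probes of Cop1 and Itch were at 0.12 and 0.17 and not called. Zfp36, which encodes the decay factor tristetraprolin, was well above background on 1 of 8 arrays at most and was not tested.

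Of 26 genes with known AP-1 sites, 18 were tested, 7 were called higher, 1 lower and 10 neither, with a median of 0.16. The shares were 38.9% higher and 5.56% lower, beside 21.9% and 35.5% of all genes, and 2 of the 7 called higher lay at background on all control arrays and passed the filter only through the NM401 arrays. Ccl2, the monocyte chemokine, rose by 2.89 ± 0.13 (SE), or 7.40-fold (limma adjusted p = 2.47e-05). Dusp1, a phosphatase that switches MAP kinases off, read at background on all 4 control arrays. It was 7.89-fold higher with control values raised as for Fos, which is not a strict lower bound (adjusted p = 0.000123). It is 1 of those 2 genes, so this p is no support of its own. With normexp correction, Dusp1 was at 0.71 on the log2 scale and called. Mmp12, the macrophage elastase, rose by 0.51 ± 0.17 and Plaur, the urokinase receptor, by 0.36 ± 0.10 (adjusted p = 0.03 and 0.0183), and these calls held in 9 and 12 of 18 alternatives. For Mmp12 they were lost without control replicate 1 or 3 or any single NM401 replicate, and for Plaur without NM401 replicate 3. Mmp3, stromelysin, fell by 1.33 ± 0.34 (adjusted p = 0.0111) and was called neither within slide 1 nor with slide as a block.

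**Figure D5:**
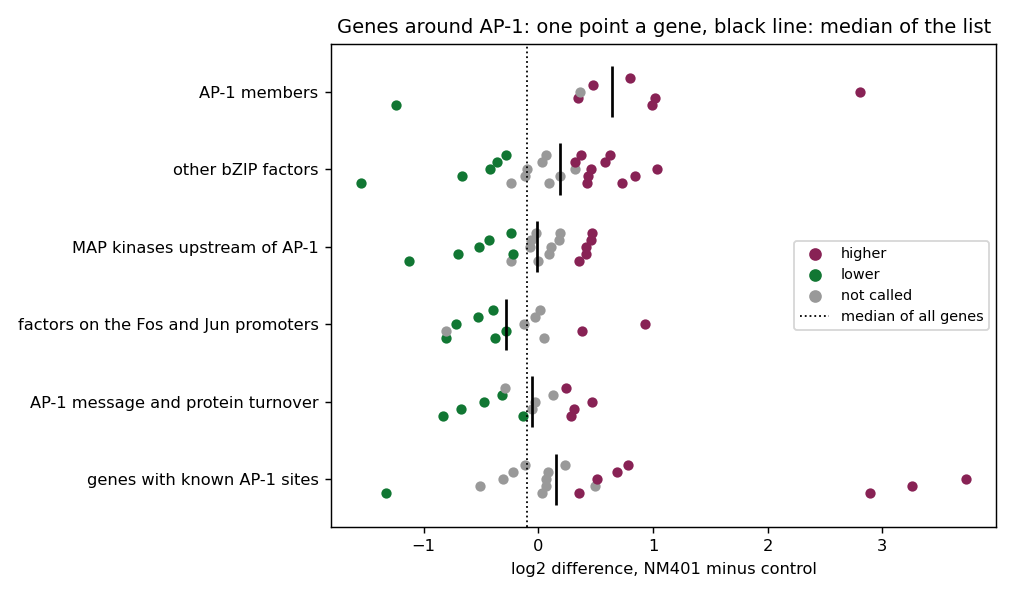
Log2 difference of NM401 minus control (horizontal axis) for each tested gene of 6 lists, coloured by call, genes at background in control at their fitted values, with a black line at the median of the list and a dotted line at the median of all genes, -0.10. The median of the AP-1 members is 0.64 and those of the other lists run from -0.28 to 0.19. The AP-1 median includes Fos and Batf, which passed the filter only through the NM401 arrays.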

How the data were processed

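Per the labels' protocols, total RNA was made into Cy3-labelled cRNA and read on 1-colour Agilent arrays. The intensity values in the deposited scanner files come from Agilent Feature Extraction (11.0.1.1), as the submitters' processing notes give it. Per the file headers, this software subtracted background and removed spatial trends array by array, and the arrays were left unscaled against each other. The deposited series values equalled the median spot intensity in 503808 of 503808 cases, so they are linear, with no background subtraction, centring or scaling.

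The members, gene lists and tests were chosen with earlier results of these data known. Spots marked as outliers were dropped, repeat spots were averaged as log2 values, and each array was centred on the 75th percentile of its 58717 non-control spots. No non-control spot was saturated (0). The 21685 probes that 4 or more arrays read well above background were tested by lmFit and eBayes of limma 3.58.1 under R 4.3.3 (two-sided, files read with the package data.table, version 1.17.8), and Benjamini-Hochberg adjustment ran over these probes. SE and 95% intervals are those of the fit. The script was tested on simulated data. Genes were named through RefSeq accessions (21109 of 45598 probes) or older symbols (424), and otherwise as in the files. Named genes were all members, in each other list the 3 called genes with the smallest p in each direction, 8 genes fixed by name where measured, and the 3 nearest profiles of the 3 members with the largest differences among those well above background on all arrays. Some genes that this rule names are left out here. The number of arrays limits the precision. Alternatives were normexp background correction (offset 50), quantile and median scaling, 2 other filters on dim probes, the mean of a gene's probes, slide or replicate number as a block, slide 1 alone, the series values and leaving out each array. Scaling to the spike-ins was added after seeing the data, without a test.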

Additional observations from a re-analysis of the deposited data

Results flagged for a closer look

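Of 26 groups of 4 values examined for an array far from the other three, 1 stood out, and chance gives about 1 in 20. On the Fosl1 probe, NM401 replicate 1 read -8.90 on the scaled log2 axis, away from the other NM401 arrays, which lay between -8.52 and -8.45. All of these values are at background.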

How the results depend on the processing

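Fos was called under all 17 and Junb under all 18 tested alternatives that gave a value for them, Fosl2 and Atf3 under 17 of 18 and Jun under 16 of 18. Fosb reversed with normexp correction (-0.156) and the series values (-0.0616), Batf likewise (-0.163 and -0.0576), and Fosl2 with spike-in scaling (1.23). Of the members, 3 were called higher with slide as a block, and 2 were called lower with no filter on dim probes, where Fosl1 was added. Fosl1 lay at background on all 8 arrays, so its call there shows no fall of the gene. Within slide 1, where NM401 replicate 1 is the only NM401 array, fewer members, fewer genes of every list and fewer of all genes were called. The calls over all 17395 genes also moved with the setting. As reported, 3813 were higher and 6168 lower, and with slide as a block 2211 and 3519. Median scaling gave 6094 and 3352 and quantile normalisation 4763 and 4864. Normexp correction gave 2737 and 9375 and the series values 2808 and 8409. With no filter, 2944 of 36151 genes were higher and 7746 lower. The counts of members and lists are to be read beside these. With slide as a block, 3 MAP kinases and 1 turnover gene were called higher and 0 genes with AP-1 sites lower. Median scaling gave 3 zipper factors, 3 promoter factors and 2 turnover genes lower and 11 genes with AP-1 sites higher. Quantile normalisation gave 3 turnover genes lower, and no filter gave 3 of these and 2 genes with AP-1 sites lower. Normexp correction gave 1 promoter factor higher and 4 genes with AP-1 sites lower, as did the series values (4). With all 8 arrays above background 0 of the latter were lower, and the mean of probes gave 3 zipper factors lower. Leaving out 1 array gave 1 to 2 genes with AP-1 sites lower, with 2 without control replicate 1 or 3, and 5 to 7 members higher.

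The replicate numbers showed no clear pairing of the arrays (same-number deviations correlated at 0.188, -0.00662, 0.0853 and -0.0561). Different-number deviations correlated at -0.295 to 0.172, and such values cannot exclude a pairing. With the replicate block 5 members were higher and 1 lower, and Jund was not called (0.34, adjusted p = 0.0768). Signal over background limits Fos, Batf and Fosl1.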
